A study of Mus musculus with 6 samples.

Results

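The 10 genes described here are regulators and markers of epithelial-mesenchymal transition: the transcription factors Zeb1, Zeb2, Snai1, Twist1, Twist2 and Prrx1, the mesenchymal structural genes Vim and Cdh2, and the epithelial regulators Esrp1 and Grhl2. They were chosen by name, and every gene probe whose accession maps to one of these symbols was taken, which gave 15 of the 55681 gene probes on the array. All 10 passed the filter on dim probes, and they are 10 of the 22503 genes or unnamed transcripts tested.

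In epithelial-mesenchymal transition, epithelial cells loosen their junctions and take on a fibroblast-like form. Zeb1, Zeb2 and Snai1 are zinc finger proteins that bind E-box motifs and repress epithelial genes such as the one for E-cadherin, whereas the Twist and Prrx1 proteins are better known as activators of mesenchymal genes. Esrp1, a splicing regulator, and Grhl2, a transcription factor, maintain the epithelial state. Grhl2 represses Zeb1, and Zeb1 represses Esrp1. In carcinomas many of these genes are also expressed by stromal cells, above all by fibroblasts.

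RNA came from live CD45- cells sorted from mammary tumors grown as orthotopic transplants (in the mammary gland) in syngeneic C57BL/6 mice. The transplanted cells were late carcinoma cells of MMTV-PyMT mice, in which the MMTV promoter drives the polyomavirus middle T oncogene in mammary epithelium. They were either RANK+/+ or RANK-/-, that is, with or without the gene for the receptor activator of NF-kB (Tnfrsf11a), and both were C57BL/6. All donor cells thus carried the PyMT transgene, and in both groups the hosts were wild type for RANK, so host stroma and vessels could carry the gene. Ages of the mice are not given in the labels. Each of 3 pairs held 1 RNA per genotype, hybridized together to 2 technical replicate arrays, A and B (6 arrays). Nothing in the labels ties the RNAs of a genotype to separate tumors, so tests over pairs measure only the spread between these samples, which may be technical. RANK-/- RNA was labeled with Cy5 in pair 1 and with Cy3 in pairs 2 and 3. Values are log2 ratios, averaged over arrays A and B, and a positive value means more signal in the channel labeled RANK-/-.

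Between 51.9% and 58.8% of gene probes were well above background in a channel. Across genes, the technical replicate arrays correlated with r from 0.973 to 0.983, whereas pair ratios correlated with r of -0.279 (pairs 1 and 2), 0.178 (pairs 1 and 3) and -0.0792 (pairs 2 and 3). Genes are not independent replicates. The deleted gene went against its label: the single Tnfrsf11a probe gave 2.03, 1.15 and 1.76 in pairs 1, 2 and 3, with more signal in the channel labeled RANK-/- each time. Whether this probe lies in the deleted part is not given in the sources used here. Directions below hold only as far as the channel labels do.

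The cells fitted the label of the sort in part. All 10 luminal epithelial markers, among them Krt8 and Epcam, were well above background in all 12 channels. Ptprc, which encodes CD45, was well above background in 5 of 6 channels labeled RANK-/- and 4 of 6 labeled RANK+/+, and Ncr1 was so in none. Of the 11 leukocyte markers tested, however, 8 were well above background in all 12 channels, among them Cd3e, Csf1r and Tyrobp. All 15 fibroblast markers were well above background in every channel, and whether these transcripts came from stroma or from tumor cells was not tested. In such bulk RNA, fewer cells of a type and less RNA per cell cannot be told apart.

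Zeb1 and Zeb2 were the only members with 1 sign in every pair, and none of the 10 passed a test. By limma, 0 of 10 members had an adjusted p under 0.05, as did 0 of all tested genes (background 0%). At an unadjusted p under 0.05 by limma there were 2 of 10 members, Zeb1 and Zeb2, and 646 of all 22503 tested genes. By the rank product, the kind of test the study used, 0 members passed a pfp (estimated proportion of false positives) of 0.05 in either direction, against a background of 0.0444% higher and 0.04% lower. A ratio above 0 in all 3 pairs was found in 2 of 10 members against 9.93% of all tested genes, and a ratio below 0 in all 3 pairs in 0 members against 9.65%. The members' mean ratios had a median of 0.37, and those of all tested genes a median of 0.00. With 3 pairs an exact two-sided sign-flip test cannot go below p = 0.25.

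**Figure D1:**
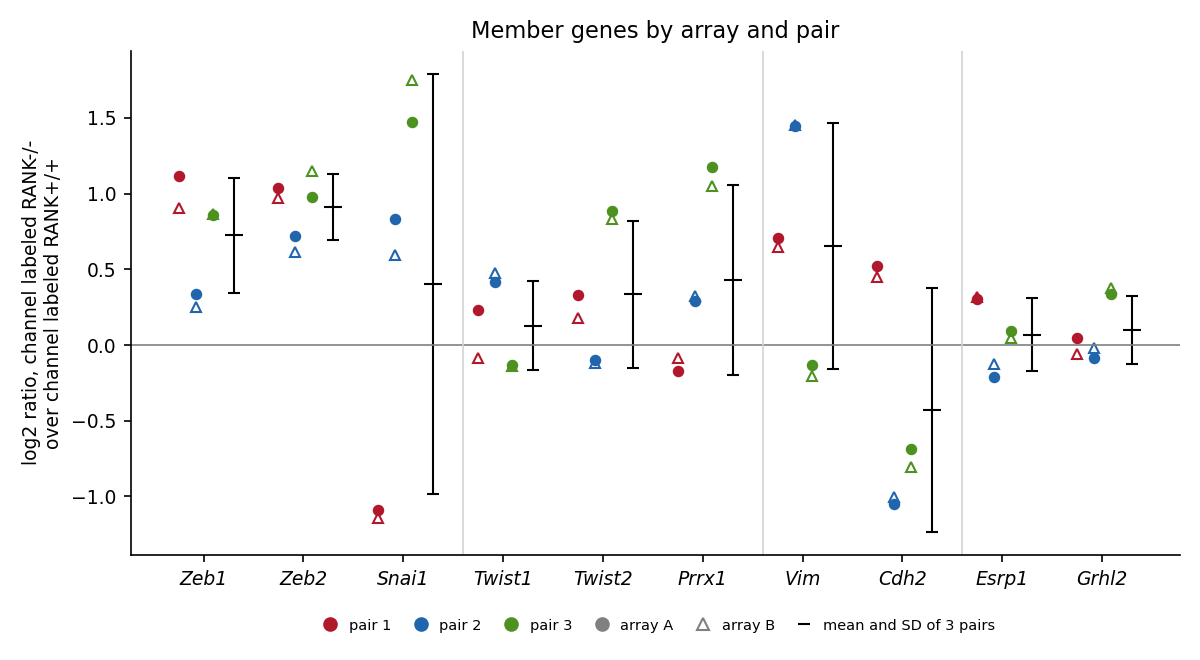
Log2 ratio of the channel labeled RANK-/- over the channel labeled RANK+/+ (vertical axis) for each of the 10 members (horizontal axis, in the order repressors, activators, structural genes, epithelial regulators). Filled circles are array A, open triangles array B, colors the 3 pairs, and the black mark the mean with the SD over 3 pairs. Arrays A and B lie close together while pairs scatter, and all 6 arrays lie above 0 for Zeb1 (from 0.25) and Zeb2 (from 0.61).

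Zeb2, a repressor of the E-cadherin gene and also a SMAD-binding protein, had the highest mean. Its log2 normalized intensity, a within-probe level, was 8.38, 7.83 and 7.88 in the RNAs labeled RANK-/- of pairs 1, 2 and 3. In the RNAs labeled RANK+/+ it was 7.38, 7.16 and 6.81. All 3 levels labeled RANK-/- thus lay above all 3 labeled RANK+/+, without overlap. The pair ratios were 1.00, 0.67 and 1.07, and the 6 arrays ranged from 0.61 to 1.15. The mean log2 ratio was 0.91 ± 0.21 (SD, n = 3; SE from limma 0.16), a 1.88-fold difference with a 95% interval of 0.48 to 1.34. Neither limma (adjusted p = 0.999) nor the rank product (pfp = 0.451, the lowest of the members) called it.

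A dimmer Zeb2 probe on the array did not show a difference of this size. This probe, of the same accession (NM_015753), gave 0.22, 0.03 and 0.10 in pairs 1, 2 and 3, with a mean of 0.12 ± 0.10 (SD, n = 3). Its signal exceeded background clearly on 5 of 6 arrays for the label RANK-/- and on 2 of 6 for the label RANK+/+, whereas the brighter one did so on all 6 for either label. The average of both probes was 0.51, lower than the reported mean.

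Zeb1, the paralog of Zeb2 and likewise an E-box repressor, had the same sign in every pair and a more uneven size. Its level was 8.63, 8.0 and 8.42 in the RNAs labeled RANK-/- and 7.62, 7.70 and 7.55 in those labeled RANK+/+. Here too the groups did not overlap, and the RNAs labeled RANK+/+ spread little (SD 0.07, against 0.32 in those labeled RANK-/-). The pair ratios were 1.01, 0.30 and 0.86, with a mean of 0.72 ± 0.38 (SD, n = 3; SE from limma 0.20), or 1.65-fold. Pair 2 thus gave the smallest ratio of the 3 for Zeb1 and for Zeb2. Limma gave an adjusted p of 0.999 and the rank product a pfp of 0.704. Levels without overlap were found in 2 of 10 members in the direction of the channel labeled RANK-/-, where 3.66% of all tested genes had them, and in 0 of 10 in the opposite direction, where 3.82% did.

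Snai1, the E-cadherin repressor Snail, turned its sign between pairs. Its level was 8.25, 8.97 and 9.92 in the RNAs labeled RANK-/- of pairs 1, 2 and 3 and 9.36, 8.25 and 8.31 in those labeled RANK+/+. The groups overlapped, with pair 3 highest in one group and pair 1 highest in the other. The pair ratios were -1.12, 0.72 and 1.61, and the mean of 0.40 ± 1.39 (SD, n = 3; adjusted p = 0.999 by limma) had the largest spread of all members. Arrays A and B of a pair differed far less, with a technical SD of 0.15.

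Snai1 was also the one member whose promoter window held the E-box that Zeb and Snail proteins bind, written CACCTG or, read on the other strand, CAGGTG. The sequence is shown because the family of repressors includes Snai1 itself. It covers the 250 bases before the start of transcription (RefSeq, GRCm38.p6, chr2:167537945-167538194, plus strand), and capitals mark the E-box.
Snai1: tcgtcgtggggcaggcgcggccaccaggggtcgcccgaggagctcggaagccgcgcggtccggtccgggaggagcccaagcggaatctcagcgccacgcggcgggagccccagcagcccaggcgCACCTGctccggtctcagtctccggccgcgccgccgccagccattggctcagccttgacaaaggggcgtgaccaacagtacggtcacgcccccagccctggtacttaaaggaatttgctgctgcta
Of the members, 6 matched a promoter window and 1 of these 6 held an E-box in any of its windows, while 19.4% of all 27025 genes with a window did. No window was used here for Zeb1, Cdh2, Esrp1 or Grhl2. A match of letters is a description and not a binding site.

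**Figure D2:**
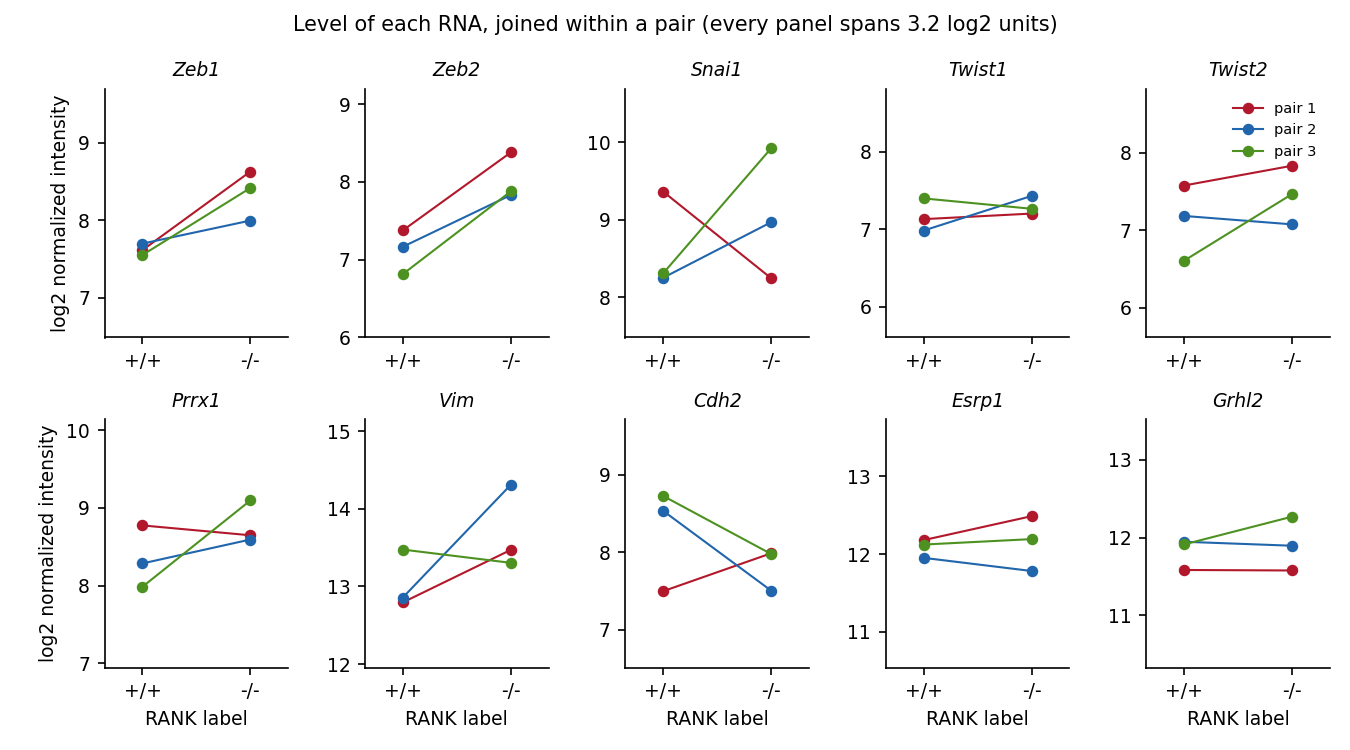
Log2 normalized intensity (vertical axis, 1 panel per member, each spanning the same number of log2 units) of the RNAs labeled RANK+/+ and RANK-/- (horizontal axis), with lines joining the 2 RNAs of a pair. The lines of Zeb1 and Zeb2 all go up and their groups do not overlap, whereas those of the other 8 members overlap between groups.

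The activators gave small or uneven ratios. Twist1, a basic helix-loop-helix factor of mesoderm and mesenchyme, had levels of 7.20, 7.43 and 7.26 labeled RANK-/- and 7.13, 6.98 and 7.40 labeled RANK+/+. These overlapped, and the pair ratios of 0.07, 0.45 and -0.13 gave a mean of 0.13 ± 0.29 (SD, n = 3). Twist2, its paralog, stood at 7.83, 7.08 and 7.46 against 7.58, 7.18 and 6.61, with overlap and pair ratios of 0.25, -0.11 and 0.86. Its mean was 0.33 ± 0.49 (SD, n = 3), and pair 3 held most of it. The 95% limma intervals were -0.35 to 0.61 for Twist1 and -0.30 to 0.97 for Twist2.

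Prrx1, a homeobox factor of limb mesenchyme and fibroblasts, had levels of 8.65, 8.59 and 9.10 labeled RANK-/- and 8.77, 8.29 and 7.98 labeled RANK+/+. The groups overlapped, since pair 1 ran the other way. The pair ratios were -0.13, 0.31 and 1.11, with a mean of 0.43 ± 0.63 (SD, n = 3; adjusted p = 0.999 by limma). A second Prrx1 probe, of another transcript accession (NM_001025570), gave -0.22, 0.18 and 0.53, the same signs at smaller size.

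The median of the fibroblast markers, though not every marker, had the same order of pairs as Prrx1. The median of the 15 markers was 0.10 in pair 1, 0.72 in pair 2 and 1.54 in pair 3. The number of markers above 0 was 9, 12 and 15, and 9 of the 15 were lowest in pair 1 and highest in pair 3, as Prrx1 was. Decorin (Dcn), a proteoglycan of fibrous matrix, gave -0.71, 1.5 and 2.92, and Col1a2, a chain of type I collagen, gave 0.61, 0.85 and 2.38. Pdgfra, a receptor that marks fibroblasts, gave 0.16, 0.20 and 1.26. The other 6 had another order, among them Col1a1, the other chain of type I collagen (0.68, 0.30 and 1.94), and Pdgfrb, a receptor of fibroblasts and pericytes (1.6, -1.03 and 0.76). The summed linear level of the 15 markers ranged from 174834 to 277574 in the RNAs labeled RANK-/- and from 67504 to 186933 in those labeled RANK+/+, so it overlapped. Of the 15 markers 6 were above 0 in all 3 pairs and 0 were below in all 3, where 9.93% and 9.65% of all tested genes were. By limma 0 of the 15 passed. None was at background. Their part in the ratios of Prrx1, Zeb1, Zeb2 and Vim was not tested. In pair 1 the ratio was 1.01 for Zeb1 and 1.00 for Zeb2. In that pair the fibroblast median was 0.10, with 9 markers above 0 and 6 below, from -0.71 (Dcn) to 1.6 (Pdgfrb). All 8 markers of pericytes and smooth muscle were above 0 there, with a median of 0.72. In pair 2 all 8 were below 0, with a median of -0.62, and the ratio was 0.30 for Zeb1 and 0.67 for Zeb2. In pair 3, 5 of the 8 were above 0 and 3 below, with a median of 0.20, and the ratio was 0.86 for Zeb1 and 1.07 for Zeb2. The part of these cells in the Zeb1 and Zeb2 ratios was not tested either.

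Vim, the intermediate filament of mesenchymal cells, was high in one pair and not in another. Its level was 13.47, 14.31 and 13.30 in the RNAs labeled RANK-/- and 12.79, 12.86 and 13.47 in those labeled RANK+/+. The groups overlapped through pair 3. The pair ratios of 0.68, 1.45 and -0.17 gave a mean of 0.65 ± 0.81 (SD, n = 3), or 1.57-fold, with a 95% interval of -0.28 to 1.59 and an adjusted p of 0.999 by limma. The SD between pairs was 21.2 times the technical SD of 0.04. In pair 3 Vim was at -0.17 and all 15 fibroblast markers were above 0. The part of stromal cells in the Vim ratios was not tested.

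Cdh2, which encodes N-cadherin, was the only member with a negative mean. Its level was 7.99, 7.51 and 7.98 labeled RANK-/- and 7.5, 8.53 and 8.73 labeled RANK+/+, again with overlap. The pair ratios of 0.49, -1.03 and -0.75 gave a mean of -0.43 ± 0.81 (SD, n = 3; adjusted p = 0.999 by limma). A second Cdh2 probe gave 0.30, -0.84 and -0.87, the same sign in each pair. Pairs 2 and 3 shared a dye arrangement that pair 1 did not have, so dye and pair cannot be told apart here. With the dye arrangement as a term in the fit the mean of Cdh2 was -0.20 and that of Snai1 was 0.02.

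The epithelial regulators had the mean ratios nearest 0. Esrp1 had levels of 12.49, 11.78 and 12.19 labeled RANK-/- and 12.18, 11.95 and 12.12 labeled RANK+/+, and pair ratios of 0.31, -0.17 and 0.07. Its mean was 0.07 ± 0.24 (SD, n = 3), with a 95% interval of -0.37 to 0.51. A dimmer Esrp1 probe gave -0.05, -0.14 and -0.06. Grhl2 had levels of 11.58, 11.90 and 12.27 against 11.58, 11.95 and 11.91, and pair ratios of -0.01, -0.05 and 0.36. Its mean was 0.10 ± 0.22 (SD, n = 3), with a 95% interval of -0.33 to 0.53. A second Grhl2 probe gave -0.09, 0.25 and 0.29. Levels of both genes overlapped between groups.

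A difference of at least 2-fold either way was found in 3 members in pair 1 (Zeb1, Zeb2 and Snai1), where 6.5% of all tested genes had one. In pair 2 there were 2 (Vim and Cdh2), against 4.82%, and in pair 3 there were 3 (Zeb2, Snai1 and Prrx1), against 7.92%. Zeb2 was the one member past 2-fold in more than 1 pair with the same sign. By sign, 7 members were above 0 in pair 1, 6 in pair 2 and 7 in pair 3. The median SD between pairs was 0.43 for the members and 0.33 for all tested genes.

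The wider mesenchymal program, a list of 30 other genes linked with the transition, held genes of either sign. Of these, 3 were above 0 and 2 below 0 in all 3 pairs, where 9.93% and 9.65% of all tested genes were, and 0 passed limma or the rank product. The median of the list was 0.02 in pair 1, -0.00 in pair 2 and 0.56 in pair 3. The summed linear level of the list ranged from 168895 to 254128 in the RNAs labeled RANK-/- and from 129410 to 157001 in those labeled RANK+/+, without overlap, and its log2 ratio was 0.38, 0.13 and 0.97. Bright genes weigh most in such a sum. Sparc, the brightest of the list, gave 0.84, -0.20 and 1.53, and its own levels overlapped between groups. Those above 0 throughout were Wnt5a, a non-canonical Wnt ligand (0.34, 0.78 and 1.16), Pmp22, a membrane protein best known from myelin (0.08, 0.74 and 0.49), and Loxl2, a matrix cross-linking oxidase (0.01, 0.07 and 1.06). Those below 0 throughout were Snai2 and Itga5. Snai2 (Slug), the paralog of Snai1 and a factor of basal mammary cells, gave -0.36, -0.48 and -0.58. Its mean was -0.47 ± 0.11 (SD, n = 3; adjusted p = 0.999 by limma), opposite in sign to Zeb1 and Zeb2. The summed level of the 8 basal myoepithelial markers was also lower in the RNA labeled RANK-/- of every pair (log2 ratio -0.91, -0.21 and -0.34). The medians of these 8 markers were -0.00, 0.00 and -0.08, however. Among them 1 was below 0 in all 3 pairs (Lgr5) and 1 was above (Oxtr). The part of basal cells in the ratio of Snai2 was not tested. Itga5, a fibronectin receptor subunit, gave -0.21, -0.51 and -0.02.

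The epithelial program, 30 genes of junctions, keratins and epithelial transcription, differed between pairs. Only 3 of the 30 were above 0 in pair 2, against 15 in pair 1 and 21 in pair 3, and the medians were -0.03, -0.50 and 0.46. Of the list 1 gene was above 0 in all 3 pairs and 5 were below 0 in all 3 (16.7%), where 9.93% and 9.65% of all tested genes were. The list shares 5 genes with the luminal epithelial markers. Desmoplakin (Dsp), which ties keratin filaments to desmosomes, gave -1.88, -1.40 and -1.35 with a mean of -1.54 ± 0.29 (SD, n = 3). Grhl3, a paralog of Grhl2, gave -0.99, -0.28 and -0.04. Also below 0 throughout, and named after their values were seen, were Esrp2, the paralog of Esrp1 (-0.63, -0.41 and -0.17), and Ap1m2, an epithelial sorting adaptor subunit (-0.58, -0.23 and -0.07). Spint1, a protease inhibitor of epithelial cells, was above 0 throughout (0.09, 0.75 and 0.22). None passed limma (adjusted p = 0.999 for each) or the rank product. Cdh1, which encodes E-cadherin, gave 0.27, -0.47 and -0.15.

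The E-box of Zeb and Snail proteins was frequent before the starts of these epithelial genes. Of the 30 genes 20 matched a promoter window, and 13 of these 20 (65.0%) held at least 1 E-box in the 250 bases before a start, against the 19.4% of all genes given above. Ap1m2 held 4, and Crb3, a polarity gene, and Spint2 held 3 each. Ap1m2 and Crb3 are shown for their number of E-boxes and not for their ratios. Capitals mark the E-boxes, and the coordinates are of RefSeq, GRCm38.p6 (chr9:21312334-21312583, minus strand, and chr17:57061951-57062200, plus strand).
Ap1m2: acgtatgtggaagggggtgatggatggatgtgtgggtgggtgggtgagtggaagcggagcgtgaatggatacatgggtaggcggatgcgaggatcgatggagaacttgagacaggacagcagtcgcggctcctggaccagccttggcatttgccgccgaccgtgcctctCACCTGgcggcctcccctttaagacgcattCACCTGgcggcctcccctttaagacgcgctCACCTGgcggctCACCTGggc
Crb3: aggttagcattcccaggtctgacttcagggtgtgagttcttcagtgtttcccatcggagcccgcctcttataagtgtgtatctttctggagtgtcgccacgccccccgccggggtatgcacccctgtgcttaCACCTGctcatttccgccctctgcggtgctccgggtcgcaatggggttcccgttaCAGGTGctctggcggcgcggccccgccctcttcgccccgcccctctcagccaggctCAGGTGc
Crb3 gave -0.12, -0.71 and 0.62 in pairs 1, 2 and 3, and Spint2 gave 0.90, -0.54 and 0.39. The 13 genes with an E-box had medians of -0.29, -0.54 and 0.63 in pairs 1, 2 and 3, and the 7 with a window and no E-box had medians of 0.31, -0.29 and -0.02. Below 0 in all 3 pairs were 2 of the 13 and 1 of the 7. The difference between these sets was not tested, and a gene without this motif in the window may carry it elsewhere.

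**Figure D3:**
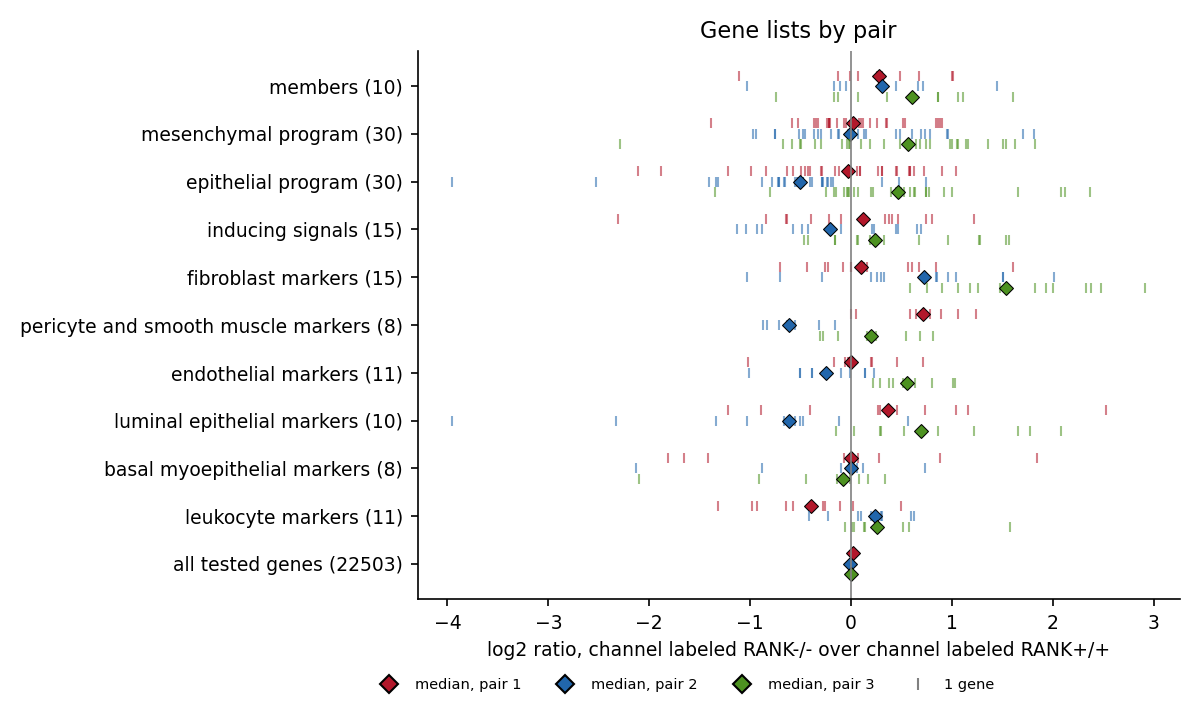
Log2 ratio of the channel labeled RANK-/- over the channel labeled RANK+/+ (horizontal axis) by gene list (vertical axis, number of tested genes in brackets). Short marks are single genes, diamonds the median of the list in a pair, and colors the 3 pairs. Medians of all tested genes lie within 0.02 of 0, while the fibroblast medians run from 0.10 to 1.54 and that of the luminal markers is -0.61 in pair 2 and above 0 in pairs 1 and 3.

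Among the signals that induce the transition, the TGF-beta receptors were above 0 in every pair. These were 3 of the 15 genes in the list, where 9.93% of all tested genes were above 0 in all 3 pairs. By limma or the rank product 0 of the 15 passed. Tgfbr3, the coreceptor betaglycan, gave 1.22, 0.69 and 1.53, with a mean of 1.15 ± 0.43 (SD, n = 3; adjusted p = 0.999 by limma). Tgfbr2 gave 0.12, 0.21 and 1.27, and Tgfbr1 gave 0.38, 0.23 and 0.97, so that pair 3 was highest for all of these receptors. The fibroblast median was also highest in pair 3 (1.54), and the part of stromal cells in these ratios was not tested. The ligand gene Tgfb1 gave 0.47, -1.05 and 0.33. Bmp4, a ligand of the BMP branch, was the 1 gene of the 15 below 0 in all 3 pairs, where 9.65% of all tested genes were. It gave -0.65, -1.13 and -0.47.

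Which listed genes were most like the main members was measured by the mean absolute difference of log2 ratio over the 3 pairs, among the 141 other genes of all lists. Nearest to Zeb2 were Zeb1 (0.19), Tgfbr3 (0.24) and Wnt5a (0.29). Near to Vim were the integrin gene Itgb3 (0.41; ratios 0.90, 0.96 and -0.67) and Twist1 (0.55). Nearest to Esrp1 were Grhl1 (0.07), Foxc1 (0.07) and Itgam (0.09). These distances over 3 points are descriptions.

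Ratios of the markers of other cell types differed between pairs as well. Markers of pericytes and smooth muscle were above 0 in 8 of 8 genes in pair 1 and in 0 of 8 in pair 2. Endothelial markers were above 0 in 11 of 11 tested genes in pair 3, with a median of 0.55, against -0.00 and -0.25 in pairs 1 and 2. Their summed linear level ranged from 5835 to 7132 in the RNAs labeled RANK-/- and from 5096 to 7431 in those labeled RANK+/+. Luminal epithelial markers had medians of 0.37, -0.61 and 0.69, and their summed level ranged from 188835 to 713364 and from 295989 to 570676. Leukocyte markers had medians of -0.39, 0.24 and 0.26 over 11 tested genes. Their summed level ranged from 8485 to 11967 and from 7690 to 11623. Basal myoepithelial markers had medians of -0.00, 0.00 and -0.08 in the 3 pairs, but the median of their mean ratios was -0.34. Their summed level ranged from 28823 to 33207 in the RNAs labeled RANK-/- and from 37195 to 54175 in those labeled RANK+/+, without overlap. Bright genes weigh most in this sum as well. Of the 8 basal markers, 4 were above 0 in pair 1, 4 in pair 2 and 3 in pair 3. Vim and Zeb2 are also expressed by vessels and leukocytes, and the part of these cells in their ratios was not tested.

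The mean ratios of the members kept their sign in most other ways of processing the arrays. Zeb1 ranged from 0.58 to 1.00 and Zeb2 from 0.51 to 1.37 over 20 alternatives, with Zeb2 lowest where both of its probes were averaged. Vim ranged from 0.25 without pair 2 to 1.06 without pair 3. Cdh2 ranged from -0.89 to -0.13, the value without pair 2. Prrx1 was 0.71 without pair 1 and 0.09 without pair 3, and Twist2 was 0.56 without pair 2 and 0.07 without pair 3. Entering the 6 arrays as 6 replicates, which counts technical replicates as if they were samples, made Zeb2 pass limma (adjusted p = 0.0124) and not Zeb1 (adjusted p = 0.0581). With the pair as a random block, which keeps A and B together, the adjusted p was 0.232 for Zeb2 and 0.518 for Zeb1.

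**Figure D4:**
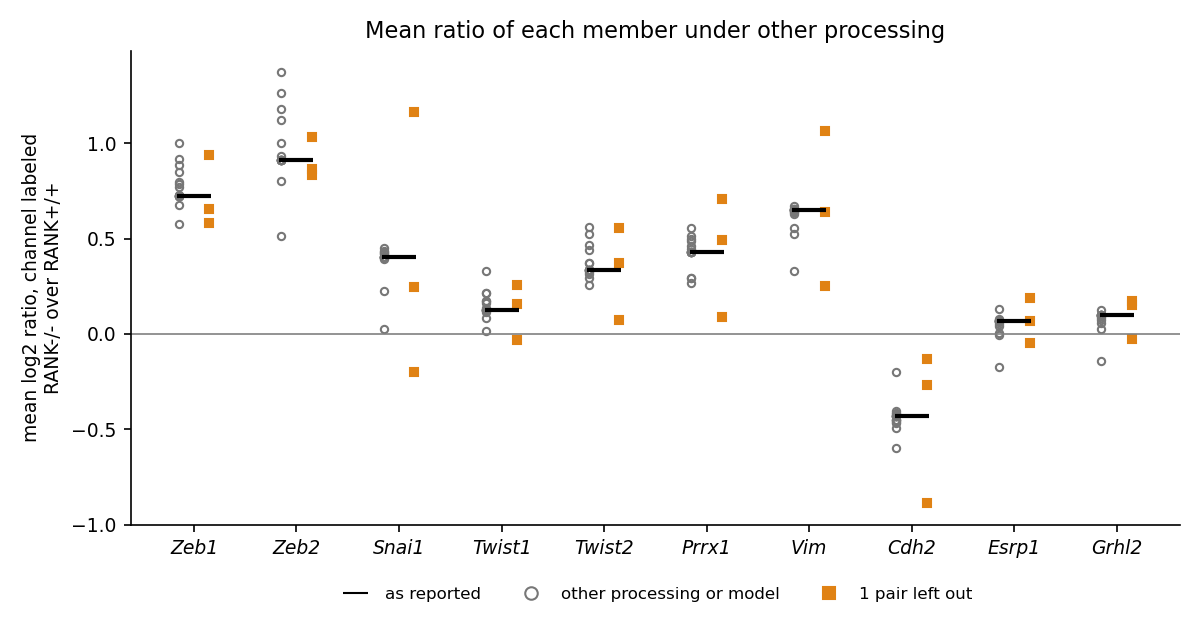
Mean log2 ratio of the channel labeled RANK-/- over the channel labeled RANK+/+ (vertical axis) for each member (horizontal axis) as reported (black bar), under other processing or models (open circles) and with 1 pair left out (orange squares). Zeb1 and Zeb2 stay above 0.5 throughout, Cdh2 stays below 0, and Snai1, Twist1, Esrp1 and Grhl2 have values on both sides of 0.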

How the data were processed

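Gene expression was measured on 6 two-color SurePrint arrays, which the authors scanned and extracted with Agilent Feature Extraction (version 10.7.3.1, per the submitters' processing notes). The deposited scanner tables hold the median intensity and median background intensity of each spot in both channels, without normalization, and processed intensities that are background-subtracted and dye-normalized per the file headers. The deposited series table holds the authors' normalized log2 ratios. Its direction and centring are not stated. Set against the scanner ratios, it ran as RANK-/- over RANK+/+ (r from 0.948 to 0.961), with array medians from -0.010 to 0.005. Processed intensities and the series table served only as alternatives.

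Median intensities were corrected with normexp (offset 50), and control spots and spots flagged as outliers (440 to 552 per array) were removed. Ratios were normalized by intensity loess and Aquantile with limma 3.58.1 in R 4.3.3. Kept probes (30230 of 55681) had to exceed background clearly, in the channel of 1 genotype, on arrays A and B of at least 2 pairs, and the brightest probe stood for a gene. Accessions were named through RefSeq (GRCm38.p6), which matched 28026 probes. The array grid is of another build, so positions are given only for RefSeq promoter windows. Ratios were tested over 3 pairs with limma (Benjamini-Hochberg threshold 0.05) and a rank product (500 draws). Figures were drawn with matplotlib 3.10.9. Both tests were first run on simulated pair ratios. False calls of the rank product were held to a limit there only with equal spread over genes, which its null assumes. Limma intervals and adjusted p-values come from the fit across all 22503 genes.

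The members, lists and tests were chosen with earlier results of these data known. The rule named Tnfrsf11a, all members, the 3 highest and 3 lowest genes with 1 sign in all pairs of the mesenchymal, epithelial and inducing lists, the 3 nearest genes to Vim, Zeb2 and Esrp1, and cell type markers that moved with a result. Some genes that the rule names are not reported here. All arrays lay on 1 slide and had 1 scan date, so neither could be tested as a batch. The labels show no dye swap within a pair, although the methods describe dye swaps. The number of arrays limits precision.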

Additional observations from a re-analysis of the deposited data

How the results depend on the processing

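No member passed limma or the rank product in the main processing or in any of the alternatives except with the 6 arrays entered as 6 replicates. There limma called 1 of 10 members (Zeb2) and 298 of the 22503 tested genes, and the rank product 1 of 10 members and 727 of these genes. With the pair as a random block limma called 13 genes and 0 members. The rank product called 19 genes in the main processing, 35 with no filter on dim probes, and 2 to 22 with 1 pair left out (3 without pair 1 and 2 without pair 3). It was not run with the random block, the dye term, the fit without pairing or robust eBayes, since these alter the model and not the ratios. Centring arrays on the median, without loess, put the median of all genes at -0.14, where Esrp1 was -0.17 and Grhl2 -0.14, which is -0.03 and -0.00 relative to that median. The mean of both probes put Esrp1 at -0.0064. With 1 pair left out, the means ranged from -0.050 to 0.19 for Esrp1, -0.029 to 0.18 for Grhl2, -0.031 to 0.26 for Twist1 and -0.20 to 1.16 for Snai1, each turning its sign once: Esrp1 without pair 1, Twist1 without pair 2, and Snai1 and Grhl2 without pair 3. The cause was not tested. Both channels of a pair share an array, so pair ratios were the main values. Without the pairing (no replicate block, 3 against 3 channels), limma called 0 members and 0 genes, with 830 at an unadjusted p under 0.05. Deviations of the channels of a pair from their group means correlated with r of -0.034, -0.218 and -0.041. The dim Zeb2 probe and the number of pairs limit what can be said of Zeb2.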
